A study of Mus musculus with 14 samples.

Results

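The cTreg-open distal regions are 1024 accessible chromatin regions, away from gene starts, that carried more ATAC-seq reads in every library of central regulatory T cells (cTregs) than in any library of effector regulatory T cells (eTregs). They were chosen by these same values out of 67254 regions in all: a mean of at least 5 CPM (the count of a region relative to the total count of its library, scaled to a fixed total) over the 7 cTreg libraries, a mean at least 2 times that of the 7 eTreg libraries, no overlap between the libraries of both states, and a midpoint more than 1 kb from any RefSeq transcription start on GRCm38. Their cTreg against eTreg difference is therefore a description and was not tested. The members made up 2.04% of the 50214 distal regions. ATAC-seq (assay for transposase-accessible chromatin with sequencing) was run on splenic Tregs from mixed bone marrow (BM) chimeras in which CD45.2+ BM from control Foxp3Cre Atg14+/fl or from Foxp3Cre Atg14fl/fl mice was mixed equally with CD45.1+ wild-type BM and given to sublethally irradiated Rag1-/- hosts, which have no T or B cells of their own. The control cells thus also carried Foxp3-driven Cre and 1 floxed Atg14 allele, so that the comparison is between loss of 1 allele and loss of both. The CD45.2+ CD4+ Foxp3-YFP+ cells were sorted as cTregs, labelled CD44- CD62L+ and gated as CD44 low and CD62L high in the methods, or as eTregs, labelled CD44+ CD62L- and gated the opposite way, which gave 3 control and 4 Atg14-deficient libraries of each state, 14 in all.

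Tregs restrain immune responses under the control of the transcription factor Foxp3. cTregs resemble naive T cells, recirculate through lymphoid organs by way of homing receptors such as Ccr7, and express quiescence and homing factors such as Tcf7, Lef1, Klf2 and Bach2, whereas eTregs have seen antigen, enter tissues, and use AP-1 factors such as Batf together with Irf4. Distal accessible regions are mostly candidate enhancers, which bind transcription factors and can act on gene starts far away, so the nearest start is a label for a region and not its known target. Atg14 directs the lipid kinase Vps34 to autophagy, the process by which cells digest their own contents.

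The libraries held between 2242983 and 5548189 counts, and the median member had between 26 and 49 counts in a cTreg library and between 10 and 20 in an eTreg library. Promoter regions, with a midpoint within 1 kb of a start, took between 55.1% and 61.5% of the counts of each library. Of the central Treg markers, the promoter region of Ccr7 had means of 34.3 CPM in cTregs and 15.9 CPM in eTregs, that of Tcf7 6.34 and 1.66 CPM and that of Lef1 47.7 and 46.0 CPM. The summed levels of the effector markers Icos, Klrg1, Cxcr3 and Prdm1 overlapped, at 82.8 to 128.5 CPM in cTregs and 74.9 to 100.8 CPM in eTregs. The genes went different ways, with cTreg and eTreg means of 35.8 and 21.5 CPM for Icos and 1.75 and 3.35 CPM for Klrg1. Those of Cxcr3 were 4.14 and 4.30 CPM and those of Prdm1 57.3 and 60.0 CPM. No region lay within 1 kb of a start of Foxp3, Cd4 or Itgae. Of the defining genes of other blood cells, Cd79a, Pax5, Lyz2, Csf1r, Itgam, Cd8a, Ncr1, Klf1 and Gata1 had no promoter region. The genes of these lists that had one gave a summed level of 7.56 to 12.5 CPM in cTregs and 16.8 to 40.7 CPM in eTregs for the myeloid list (Cebpa), 13.5 to 22.2 and 4.37 to 11.99 CPM for the CD8 T and NK cell list (mostly Cd8b1), and 0.779 to 12.4 and 3.97 to 12.4 CPM for the B cell list (Ebf1). The first and the second of these separated the states. In the second this was Cd8b1, with means of 16.2 CPM in cTregs and 4.69 CPM in eTregs, while the other gene summed there was weak and higher in eTregs. The part of these levels in the results was not tested. The region at the Atg14 start, which does not measure the deletion, had group means between 21.8 and 28.5 CPM, with an SD of at most 6.4 in any group, and none of the 5 regions nearest Atg14 was a member.

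The strongest members at known genes of resting T cells show what such a region looks like. Among the strongest members of each gene, by nearest RefSeq start, on a list of 30 genes of central and naive T cells, 7 of the 8 of highest mean cTreg CPM are printed here. Each is the central 300 bases of the region, read from the plus strand of GRCm38 (RefSeq assembly), with matches to a TCF/LEF (CTTTGAA or CTTTGAT), STAT (TTCNNNGAA), ETS (CCGGAAGT or CAGGAAGT), RUNX (TGTGGTT) or KLF (CCACACCC) motif on either strand in capitals:
Ikzf1, chr11:11726156-11726455: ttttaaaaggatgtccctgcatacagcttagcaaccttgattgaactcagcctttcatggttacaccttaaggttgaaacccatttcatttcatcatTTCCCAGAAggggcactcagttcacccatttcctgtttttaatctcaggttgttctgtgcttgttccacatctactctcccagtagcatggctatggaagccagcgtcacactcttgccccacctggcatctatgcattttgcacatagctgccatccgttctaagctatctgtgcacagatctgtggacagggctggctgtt
Il7r, chr15:9533394-9533693: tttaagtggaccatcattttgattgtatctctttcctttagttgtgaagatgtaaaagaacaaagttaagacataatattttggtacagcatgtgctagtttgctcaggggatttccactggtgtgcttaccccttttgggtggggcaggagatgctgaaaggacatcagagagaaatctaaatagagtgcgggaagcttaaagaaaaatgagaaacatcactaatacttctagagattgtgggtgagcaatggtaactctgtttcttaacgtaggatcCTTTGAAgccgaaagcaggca
Dapl1, chr2:59469807-59470106: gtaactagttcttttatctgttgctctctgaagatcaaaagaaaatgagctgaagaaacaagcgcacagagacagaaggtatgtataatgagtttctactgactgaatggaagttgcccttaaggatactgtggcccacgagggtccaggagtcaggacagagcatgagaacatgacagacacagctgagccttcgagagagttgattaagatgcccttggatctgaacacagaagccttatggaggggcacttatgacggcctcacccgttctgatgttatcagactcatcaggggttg
Bach2, chr4:32343809-32344108: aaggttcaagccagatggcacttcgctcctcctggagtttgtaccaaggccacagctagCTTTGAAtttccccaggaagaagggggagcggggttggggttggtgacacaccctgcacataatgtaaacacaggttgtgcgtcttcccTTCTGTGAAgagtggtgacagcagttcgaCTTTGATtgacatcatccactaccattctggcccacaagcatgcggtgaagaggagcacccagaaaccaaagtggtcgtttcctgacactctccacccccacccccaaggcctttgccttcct
Themis, chr10:28567507-28567806: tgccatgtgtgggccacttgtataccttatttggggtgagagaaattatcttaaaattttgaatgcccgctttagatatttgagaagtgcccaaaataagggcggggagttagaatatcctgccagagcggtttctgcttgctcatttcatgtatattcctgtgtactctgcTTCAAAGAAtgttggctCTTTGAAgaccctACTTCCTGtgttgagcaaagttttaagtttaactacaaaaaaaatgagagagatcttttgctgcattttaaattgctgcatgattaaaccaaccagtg
Foxp1, chr6:99375165-99375464: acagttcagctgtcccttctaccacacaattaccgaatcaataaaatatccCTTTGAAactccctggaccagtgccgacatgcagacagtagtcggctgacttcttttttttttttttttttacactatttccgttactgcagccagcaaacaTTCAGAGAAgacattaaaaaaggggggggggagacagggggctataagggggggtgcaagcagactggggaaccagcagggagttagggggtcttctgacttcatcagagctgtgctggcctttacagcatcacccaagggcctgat
S1pr1, chr3:115793493-115793792: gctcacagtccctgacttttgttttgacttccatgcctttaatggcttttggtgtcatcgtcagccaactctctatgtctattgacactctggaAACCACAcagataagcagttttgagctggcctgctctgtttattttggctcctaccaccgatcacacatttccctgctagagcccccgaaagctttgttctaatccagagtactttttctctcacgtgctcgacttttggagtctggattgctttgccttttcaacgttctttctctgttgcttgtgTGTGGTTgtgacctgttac

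All of these stretches held a match except that of Dapl1, and the 1 of the 8 that is not printed held none either. The Bach2 stretch held 2 TCF/LEF matches and 1 STAT match, and the Themis stretch held 2 TCF/LEF matches, 1 of which overlapped its STAT match, beside 1 ETS match. The Foxp1 stretch held 1 TCF/LEF and 1 STAT match, the Il7r stretch 1 TCF/LEF match, the Ikzf1 stretch 1 STAT match, and the S1pr1 stretch 2 RUNX matches. A match is a run of letters and not a bound site.

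The members together took 1.54%, 1.32% and 1.52% of the counts in the 3 control cTreg libraries and 1.69%, 1.64%, 1.81% and 1.40% in the 4 Atg14-deficient ones. In eTregs they took 0.506%, 0.499% and 0.548% in control and 0.568%, 0.658%, 0.636% and 0.525% in Atg14-deficient libraries. The states were far apart, as the choice of members fixes, while the genotypes overlapped within each state: Atg14-deficient eTreg replicate 4 lay among the control eTreg libraries, and Atg14-deficient cTreg replicate 4 lay below 2 of the control cTreg libraries. For the mirror set of 553 eTreg-open distal regions (the same rule with the states exchanged), control cTreg replicate 2 and Atg14-deficient cTreg replicate 4, which had the lowest shares in members of their groups, had the highest shares of their groups, 0.410% and 0.389%, against 0.204% to 0.310% in the other 5 cTreg libraries. How far this moves a result was not tested beyond leaving out each library in turn.

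**Figure D1:**
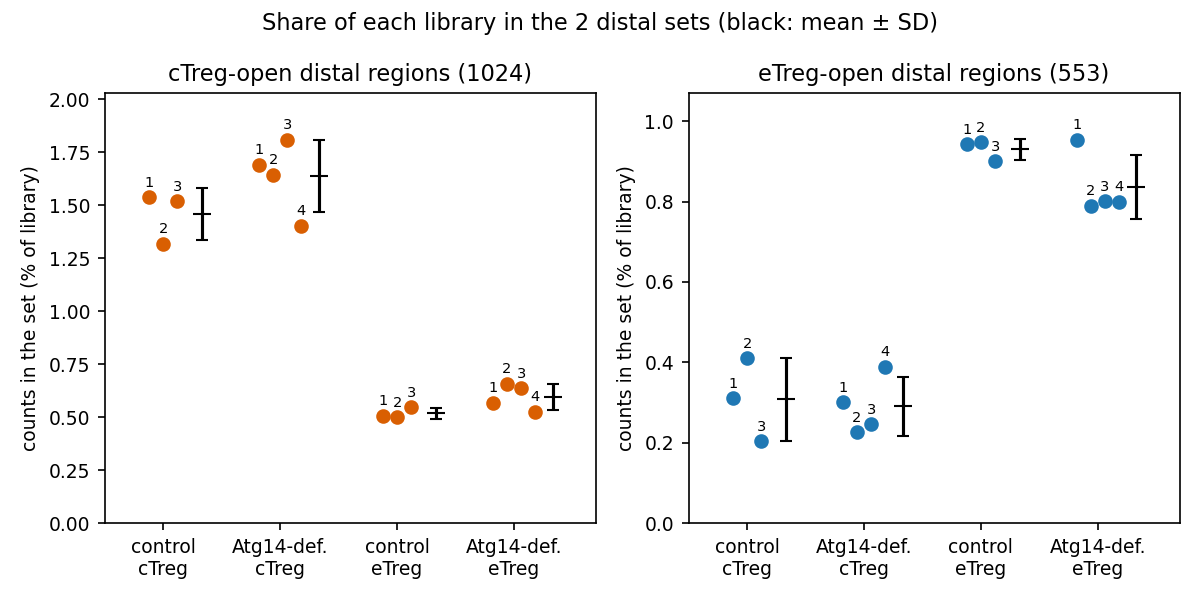
Share of the counts of each library (%, y axis) in the 1024 cTreg-open distal regions (left) and the 553 eTreg-open distal regions (right), with 1 numbered point per library for the 4 groups and the mean ± SD in black. The cTreg libraries lie between 1.32% and 1.81% on the left and all 7 eTreg libraries lie at or below 0.658%.

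Most members were modest regions with a moderate difference. Their mean cTreg level had a median of 11.4 CPM (range 5.02 to 110.4), their mean eTreg level a median of 3.83 CPM (range 0.149 to 48.7), and their ratio of mean levels a median of 2.92 (range 2.00 to 39.0). The ratio was at least 3 in 486 members, at least 5 in 101 and at least 10 in 6, and 24 members had a mean cTreg level of at least 50 CPM. The members were not shut in eTregs: none was at 0 in all 7 eTreg libraries, 97 were at 0 in at least 1 of them, and 30 had a mean eTreg level below 1 CPM. The separation was narrow for many, since the lowest cTreg library was a median of 1.23 times the highest eTreg library. The spread between libraries, as the coefficient of variation, had a median of 25.9% over cTreg and 38.2% over eTreg libraries. Taken by genotype, the ratio had a median of 3.02 in control and 2.88 in Atg14-deficient libraries, and 864 members kept a ratio of at least 2 in both genotypes.

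**Figure D2:**
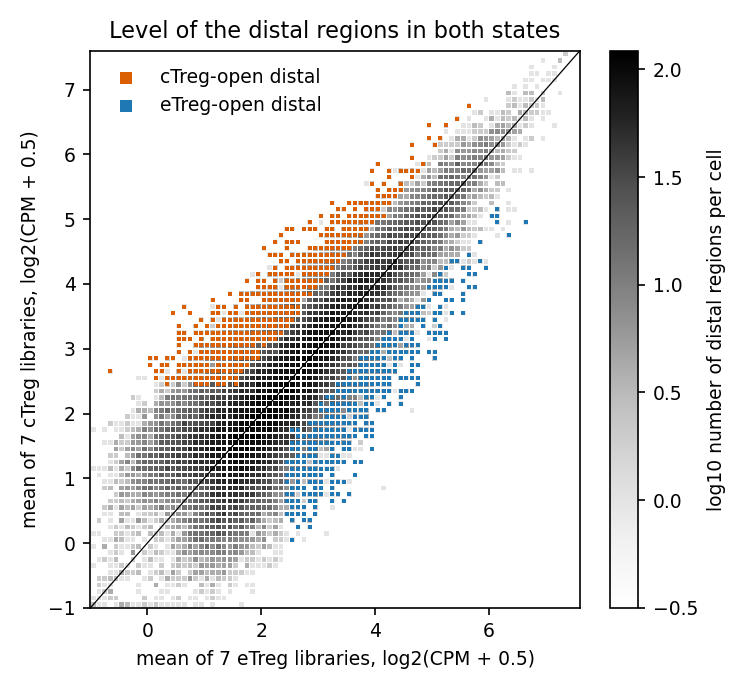
Mean level of the distal regions in the 7 eTreg libraries (x axis) and the 7 cTreg libraries (y axis), both as log2(CPM + 0.5), with the number of regions per cell in grey, the cTreg-open regions in orange, the eTreg-open regions in blue and the line of equal level in black. The orange cells begin at a mean cTreg level of 5.02 CPM and reach 110.4 CPM, and the large grey body of distal regions lies along the line of equal level.

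The edges of the rule ran through a continuous body of regions. The weakest member, near 4933432G23Rik at chr9:118387679-118387935, had a mean cTreg level of 5.02 CPM, and a region in an intron of Sgms1 just missed with 4.99 CPM at a ratio of 5.15. The member of lowest ratio lay in an intron of Poc1b at chr10:99169738-99170116 with a ratio of 2.00061, and a region near Gm30569 and Nrip1 missed at 1.99783. The member nearest to a start lay 1.02 kb into St8sia6 and the nearest region outside lay 0.981 kb into Cep68.

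The members of highest level were mostly not at genes with a known part in Tregs. The region of highest mean cTreg CPM lay between genes at chr1:183987612-183988200, 25.4 kb upstream of the gene model Gm39725, and had 78.9 to 137 CPM in cTreg libraries (median 113) and 28.8 to 68.6 CPM in eTreg libraries (median 48.8). A region 4.6 kb upstream of Glcci1, a glucocorticoid-induced gene, at chr6:8504775-8505247 had 81.3 to 117 CPM in cTregs (mean 95.1) and 30.1 to 54.5 CPM in eTregs (mean 41.9). A region in a noncoding exon of 3300002I08Rik on chromosome 2 had means of 88.7 and 36.7 CPM. A region in an intron of Rassf3, which encodes a Ras association domain protein, had means of 86.5 and 31.3 CPM, and one inside Aven, an apoptosis inhibitor gene, had means of 84.8 and 37.5 CPM.

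The members of highest ratio were nearly unread in eTregs. Of the 5, those in Cd200r3, Dock9 and Flt3 were weak, with mean cTreg levels of 5.81, 6.54 and 6.11 CPM, and those near Cd28 and in Map7 had 11.4 and 12.1 CPM. An intronic region of Cd200r3, which encodes a receptor of the CD200 receptor family, at chr16:44970782-44971136 had 6.84, 0.957 and 6.24 CPM in control cTregs and 4.20, 7.79, 6.31 and 8.35 CPM in Atg14-deficient cTregs. In eTregs it was read in control replicate 2 (0.787 CPM) and Atg14-deficient replicate 4 (0.257 CPM) and was at 0 in the other 5, so that its ratio of 39.0 rests on very few counts. A region 32.4 kb upstream of Cd28, the main costimulatory receptor of T cells, at chr1:60713683-60714230 had 5.78 to 16.8 CPM in cTregs (median 10.9) and 0 to 3.18 CPM in eTregs (median 0.36), a ratio of 13. Members with ratios of 11.7, 11.3 and 10.7 lay in introns of Dock9, Map7 and Flt3. Map7 encodes a microtubule-associated protein and Flt3 a growth factor receptor of early blood cells. The region in Map7 was the most even of these, with 7.66 to 16.7 CPM in cTregs and 0.525 to 2.51 CPM in eTregs.

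Genes of central and naive T cells were well represented. By nearest RefSeq start, 15 of the 30 listed genes had a member, with 32 members among their 343 distal regions (9.33%, against 2.04% of all distal regions) and no eTreg-open region. By nearest protein-coding start, a naming added after the values were seen because the nearest start was that of a protein-coding gene for only 604 members, 20 genes had 58 members among 671 distal regions (8.64%) with 1 eTreg-open region. These lists were drawn up with earlier results of these data known, so the shares are no independent evidence.

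Here and in the next paragraph members are named by nearest RefSeq start, unless stated. Among transcription factors of resting T cells, Bach2, a repressor that keeps T cells from effector fates, had 5 members. The strongest of them is the printed region in its intron at chr4:32343740-32344178. It had 27.3 to 39.5 CPM in cTregs (median 35.8) and 8.46 to 23.3 CPM in eTregs (median 14.2). Lef1, a TCF/LEF factor, had 3, the strongest with 10.7 to 20.6 CPM in cTregs and 3.90 to 6.85 CPM in eTregs. Foxp1, which maintains T cell quiescence, had 5, the strongest with means of 21.2 and 8.06 CPM. Satb1, a chromatin organiser needed for the early Treg programme, had 3, the strongest 76.3 kb downstream of its start with means of 14.4 and 2.95 CPM. By nearest protein-coding start both genes had stronger members, with mean cTreg levels of up to 38.2 CPM for Foxp1 and 24.2 CPM for Satb1. Ikzf1, which encodes Ikaros, had 2, and its intronic region of 746 bases at chr11:11725933-11726678 was the strongest of the whole list, with 61.3 to 106 CPM in cTregs and 24.7 to 47.9 CPM in eTregs. Ets1 had 2, with means of 13.2 and 3.89 CPM at the stronger, and Bcl11b, which holds the T cell identity, had 1 with means of 10.6 and 5.02 CPM. Klf2, which drives the homing genes, had 1 weak member of 127 bases in an intron of Eps15l1, with means of 5.62 and 1.20 CPM. Tcf7 had none, and none of its 11 distal regions (by nearest protein-coding start) reached a ratio of 2. Foxo1 and Id3 had none either.

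At receptors and surface molecules of the same list, the printed region 3.6 kb upstream of Il7r, the receptor for the survival cytokine IL-7, had 24.1 to 49.7 CPM in cTregs (median 37.8) and 13.1 to 20.6 CPM in eTregs (median 15.6). S1pr1, the receptor by which T cells leave lymphoid organs, had 1 member 78.6 kb upstream with 15.8 to 23.1 CPM in cTregs and 7.16 to 14.4 CPM in eTregs, close to the threshold of the ratio. St8sia1, a sialyltransferase gene, had the highest ratio of the 15 strongest members, 5.44, with 22.3 to 36.6 CPM in cTregs and 2.60 to 9.20 CPM in eTregs. Dapl1 had 3, the strongest with means of 34.5 and 10.3 CPM. Themis, a regulator of T cell receptor signalling, had 1 in an intron of the neighbouring Ptprk, 100.7 kb upstream of its own start, with means of 29.4 and 11.8 CPM. Treml2 and Ssbp2 had 1 each, with ratios of 2.37 and 3.06. Ccr7, the lymph node homing receptor, had none among 15 distal regions by nearest protein-coding start, although 1 of these had a ratio of 4.89.

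The other lists are given by nearest protein-coding start. Of 18 resting T cell transcription factors, 10 had 43 members among 480 distal regions (8.96%), led by Sox4, Satb1, Foxp1 and Bach2. Of 12 genes of lymph node homing and egress, 7 had 9 members among 149 (6.04%), among them 2 at the integrin gene Itga4. Of 14 cytokine receptors, 6 had 9 members among 152 (5.92%), with 3 at Tgfbr3 and 2 at Il7r. Of 21 genes of T cell receptor signalling, 4 had 11 members among 294 (3.74%), at Prkcq (5), Cblb (4), Themis and Dgkz. Of 9 Treg identity genes, Lrrc32, Ikzf2 and Nt5e had 4 members among 117 (3.42%), and Foxp3, Il2ra and Ctla4 had none. Of 13 BCL2 family genes, Bcl2, Bcl2l11 and Bid had 5 among 110 (4.55%), and of 12 AP-1 family genes, Bach2 and Bach1 had 7 among 145 (4.83%). Of 30 effector Treg genes, Gata3, Bhlhe40, Icos, Irf4 and Rora had 7 members among 450 distal regions (1.56%), where there were 15 eTreg-open regions. The 15 genes of Vps34 complexes and autophagy, Atg14 among them, had none among 49 distal regions.

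Members gathered at some genes. By nearest start, Pip4k2a, which encodes a phosphoinositide kinase, and the microRNA gene Mir6368 had 7 each, Bach2, Foxp1 and Prkcq (the protein kinase C of the T cell receptor pathway) had 5 each, and Gm22676, Eif4e3 and Poc1b had 4 each. All 7 of Pip4k2a lay in its own introns within 51.6 kb, with 7.27 to 30.2 CPM in cTregs and ratios of 2.07 to 3.49. The 7 of Mir6368 lay in introns of the noncoding gene 2610307P16Rik on chromosome 13, with ratios of 2.56 to 5.2. The nearest protein-coding start is that of Sox4, 190.9 to 323.4 kb away. The strongest of them, at chr13:28720116-28720555, had 14.1 to 31.6 CPM in cTregs and 1.03 to 9.59 CPM in eTregs. The 4 of Gm22676 lay in introns of Aven and Chrm5 within 10.7 kb and included 1 of the 5 strongest members of all.

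By nearest protein-coding start, a view added after the values were seen, Sox4, a transcription factor of lymphocyte precursors, came first with 10 members, all downstream in introns of other genes over a span of 251 kb, with a median ratio of 4.06. Its other distal regions, 21 of 31, had a median ratio of 1.96. Pip4k2a had 8, Tox and Satb1 7 each, Nrip1, Foxp1 and Btg1 6 each, and Bach2, Poc1b and Prkcq 5 each. The members of Tox, a nuclear factor of T cell development, reached from 14.8 to 464 kb from its start and those of Satb1 from 11.4 to 345 kb. At these 10 genes the median ratio over the distal regions that were not members lay between 1.34 (Pip4k2a) and 1.97 (Satb1), and there was 1 eTreg-open region, at Bach2. Most members were alone, however: the 1024 had 735 different nearest protein-coding genes, of which 549 had 1 member and 56 had 3 or more, the latter with 215 members.

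**Figure D3:**
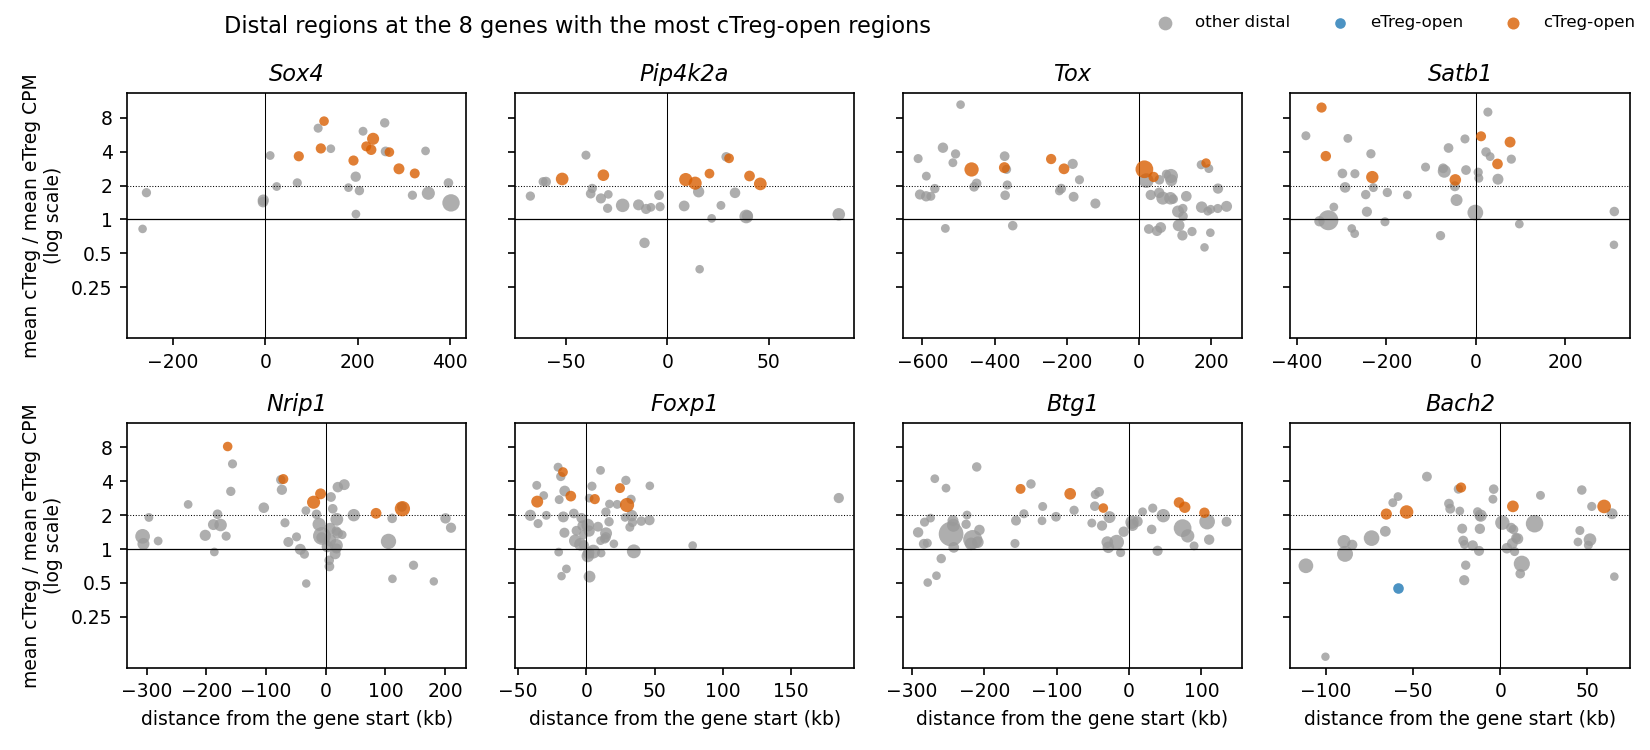
Ratio of mean cTreg to mean eTreg CPM (y axis, log scale, solid line at 1 and dotted line at 2) against the distance from the gene start (x axis, kb, upstream negative) for the distal regions whose nearest protein-coding start is that of 1 of the 8 genes with the most members, with members in orange, eTreg-open regions in blue, other distal regions in grey and larger points for higher mean cTreg CPM. The 10 members of Sox4 all lie downstream, and the grey regions there have ratios mostly above 1.

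The members were compared with other distal regions in annotation, distance and length. The rule used the limit of 1 kb on distance and a minimum level, which can favour longer regions. Of the 1024, 60.8% had their midpoint in an intron and 31.6% between genes, against 56.5% and 36.6% of all distal regions. Their median distance from a start was 16.7 kb, against 14.1 kb for all distal and 16.5 kb for the eTreg-open regions, and 153 lay over 50 kb away. Their median length was 383 bases, against 303 for all distal regions and 417 for the eTreg-open ones. They lay near each other: 35.6% had another member within 50 kb and 16.1% within 10 kb. Of the eTreg-open regions, a smaller set, 18.6% had another of their kind within 50 kb and 10.5% within 10 kb, with no adjustment for the number of regions. Of the members, 1.76% had an eTreg-open region within 50 kb. Of the 735 protein-coding genes nearest a member, 50 were also nearest an eTreg-open distal region. The share of distal regions that were members ran from 1.05% on chromosome 7 to 3.44% on chromosome 16, leaving out chromosome Y with 0 of 4.

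Accessibility around the members leaned the same way, which their choice does not fix for other regions but which shares libraries with it. Among regions with a mean level of at least 2 CPM over both states, the strongest promoter region of the 598 genes with a member had a median ratio of cTreg to eTreg CPM of 1.07, against 0.936 over 13047 genes, and was above 1 in 62.0% against 38.0%. At the 52 such genes with 3 or more members it was 1.21. Other distal regions nearest a gene with a member (7145) had a median ratio of 1.21, against 1.01 over all 41510 non-member distal regions. The promoters were thus far closer to equal than the members themselves, with 4.01% of the 598 at a ratio of at least 2.

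The sequence of the members set them apart from the eTreg-open regions, which had a like length and base composition. The median GC content of the central 200 bases was 47.0% in both sets and 48.0% over all distal regions. A TCF/LEF motif, the letters bound by Tcf7 and Lef1, stood in the central 200 bases of 20.6% of members (211 of 1024, 95% Wilson interval 18.2% to 23.2%), of 7.78% of eTreg-open regions (5.82% to 10.3%), of 10.4% of all distal regions and of 3.84% of promoter regions. An AP-1 motif (TGANTCA) stood in 11.1% of members (9.35% to 13.2%), 36.5% of eTreg-open regions (32.6% to 40.6%) and 13.8% of all distal regions, so the share was far below that of the eTreg-open set and a little below that of distal regions in general. The intervals cover counting error only, and neighbouring regions are not independent.

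The STAT motif stood in 12.9% of members, 6.87% of eTreg-open and 6.86% of all distal regions. It can share letters with a TCF/LEF match, and without such overlaps the shares were 11.6%, 6.15% and 6.33%. ETS motifs stood in 11.7% of members, 8.50% of eTreg-open and 9.27% of all distal regions, KLF motifs in 4.98%, 1.81% and 3.13%, and GATA motifs (AGATAAG) in 4.79%, 3.07% and 3.12%. NFAT motifs (TGGAAAA) went with AP-1, at 3.13%, 11.03% and 4.91%. RUNX motifs (12.01%, 12.5% and 12.3%), forkhead motifs (GTAAACA, 3.42%, 4.16% and 3.43%) and E-box motifs (CAGCTG or CACCTG, 28.0%, 27.3% and 28.4%) had close shares in the 3 sets. NF-kappaB (GGANTTTCC), T-box (TCACACCT) and NBRE (AAAGGTCA) motifs were rare, at 1.76%, 1.37% and 2.25% of members, 2.89%, 2.89% and 1.08% of eTreg-open and 1.53%, 1.51% and 1.71% of all distal regions. All 13 motifs were searched on both strands. Among the members, split into 3 equal groups by ratio, a TCF/LEF match was found in 16.7% of those with the lowest ratios, 22.6% of the middle group and 22.5% of those with the highest, and by mean cTreg level in 17.0%, 20.9% and 24.0%. Members with a TCF/LEF match had a median ratio of 3.00 and those without one 2.91. The shares depend on the window: in the central 100 bases the TCF/LEF share was 11.7% of members against 4.16% of eTreg-open regions, and over whole regions 30.9% against 16.5%. The 10 members nearest Sox4 included 1 with a TCF/LEF match, and the 8 nearest Pip4k2a had none.

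**Figure D4:**
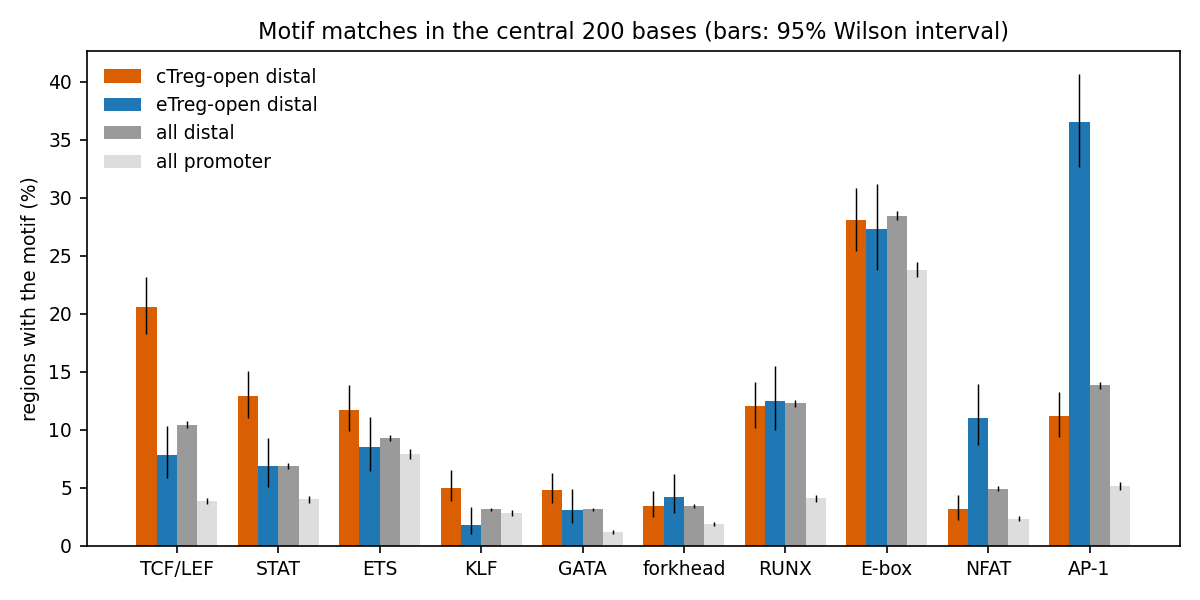
Share of regions with a match to each of 10 motifs in the central 200 bases (y axis, %) for the cTreg-open (orange, n = 1024), eTreg-open (blue, n = 553) and all distal regions (grey, n = 50214) and the promoter regions (light grey, n = 16993), with bars for the 95% Wilson interval. TCF/LEF stands highest in the cTreg-open set at 20.6%, and AP-1 in the eTreg-open set at 36.5%.

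Loss of Atg14 was compared with control in each state, which the rule did not use as a contrast, although it used the same libraries. In Atg14-deficient eTregs more members were called higher than lower by an unadjusted rule, but 0 passed after adjustment in edgeR and 1 in DESeq2. All 1024 members passed edgeR's filter on low counts, a filter that a high cTreg level alone can meet, among 61366 regions tested. With edgeR's quasi-likelihood test, 104 members (10.2%) were more accessible in Atg14-deficient eTregs at an unadjusted p under 0.05 with a log2 fold change beyond 0.5, against 4.59% of all tested regions, and 9 (0.879%) were less accessible, against 1.77%. The distance from background depended on the fit. With only the eTreg groups fitted and filtered, 758 members were tested and 47 called higher (6.20%, against 5.02% of the regions tested), all of them among the 104, so that the excess was small there. Of the 104, 26 did not pass the filter on the eTreg libraries alone and were not tested in that fit. With at least 10 counts in every library 40 of 377 members were called higher (10.6%, against 4.96%). After Benjamini-Hochberg adjustment 0 members passed in edgeR, while 14 of all regions did (0.0228%), and 1 member, near Gimap6, passed when control eTreg replicate 3 was left out. At an unadjusted p under 0.05 with no fold limit there were 116 members in either direction, against 7.95% of all tested regions, and DESeq2's Wald test passed 1 member after adjustment, the one near Gm13070 described further on. The median log2 fold change of the members was 0.20, against 0.06 over all tested regions, and 67.4% were above 0, against 56.2%. Over all tested distal regions, a closer comparison, the median was 0.09 and 57.6% were above 0. Of distal regions with a mean of both states of at least 5 CPM, 5.54% were called higher and 2.46% lower in the fit of all 4 groups. The eTreg-open regions had a median of -0.10, with 4 more accessible and 22 less accessible. The genotypes did not overlap in eTregs for 75 members with loss of Atg14 on the higher side (background 4.97%) and for 11 with it on the lower side (background 3.51%). Over all regions the split of calls depends on the scaling, since 72.2% of the eTreg calls were higher with total counts and 57.1% with TMM, against 92.0% and 85.6% among the members. The 9 lower calls became 14 without Atg14-deficient eTreg replicate 1 and 32 without replicate 2. The share over all regions in these 2 fits is not given, so whether lower calls stay below background there cannot be read. In bulk libraries a change in every cell and a change in the share of cells of a kind cannot be told apart.

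In cTregs the higher calls were close to background in the fit of all 4 groups and the lower calls below it, while the middle of the distribution was shifted. With edgeR, 20 members (1.95%) were more accessible in Atg14-deficient cTregs by the unadjusted rule, against 1.99% of all tested regions, and 2 (0.195%) were less accessible, against 1.35%. None passed after adjustment in edgeR or DESeq2, where 10 of all regions did in edgeR (0.0163%), and 25 members had an unadjusted p under 0.05 in either direction, against 4.01% of all tested regions. The median log2 fold change was 0.17, against 0.03 over all regions and 0.07 over all tested distal regions. Of the members 76.0% were above 0, against 56.9% of the tested distal regions. The libraries did not overlap in 56 members with the Atg14-deficient group above (background 3.05%) and in 4 with it below (background 2.45%). The 20 depend on the processing. With only the cTreg groups fitted there were 32 (3.13%, against 2.05% of the regions tested), the 20 among them. The replicate block, a block on same-numbered libraries across all 4 groups, gave 31. Correction for GC content left 8 (with 3 lower), which is 0.781% of members against 1.71% of all tested regions. Leaving out control cTreg replicate 2 left 6, Atg14-deficient cTreg replicate 3 left 7 and replicate 1 left 13. For the block and the left-out libraries the share over all regions is not given. The rule weights the libraries and so the genotypes 4 to 3, and with genotypes weighted equally the medians were 0.21 in eTregs and 0.17 in cTregs over 1029 members.

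The difference between the genotype effects of both states was tested as an interaction. By the unadjusted rule in edgeR, 24 members (2.34%) had a more positive effect in eTregs (background 1.9%). Another 7 (0.684%) had a more positive effect in cTregs (background 1.14%), 31 together. The 31 became 57 without control eTreg replicate 3 and 48 without Atg14-deficient eTreg replicate 2. With at least 10 counts in every library 377 members were tested. There 7 were more positive in eTregs (1.86%, against 2.08%) and 4 in cTregs (1.06%, against 1.33%), both below background. A block on same-numbered cTreg and eTreg libraries of a genotype, added after the data were seen, gave 48 as well, 32 in the former direction (3.13%, against 2.69% of all tested regions) and 16 in the latter (1.56%, against 1.82%). After adjustment none of the members and none of the tested regions passed in edgeR (0.0%), nor did any member in DESeq2, and the median interaction of the members, 0.03 on the log2 scale, equalled that of all regions. The difference between the shares of members called in both states was not itself tested. Of the 104 called higher in eTregs and the 20 called higher in cTregs, 4 were the same, which is 3.85% of the former and 20% of the latter list.

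**Figure D5:**
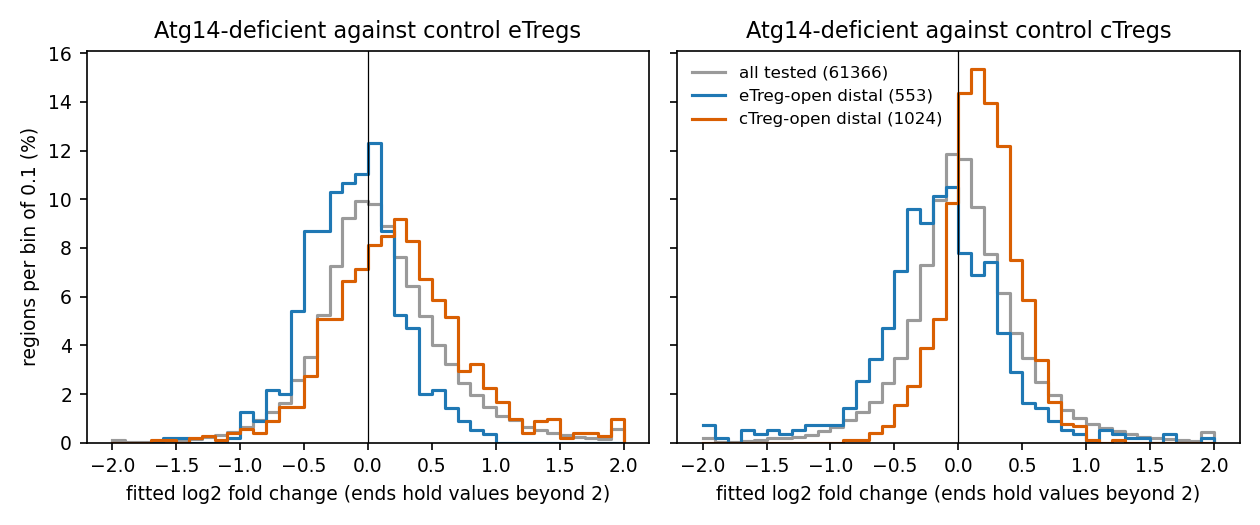
Distribution of the fitted log2 fold change of Atg14-deficient against control libraries (x axis, in bins of 0.1, the end bins hold values beyond 2) in eTregs (left) and cTregs (right), as the share of regions per bin (y axis, %), for the 1024 cTreg-open regions (orange), the 553 eTreg-open regions (blue) and all 61366 tested regions (grey). The orange curve lies to the right of the grey one in both panels, with medians of 0.20 and 0.17, and the blue curve to the left.

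The 104 members called higher in Atg14-deficient eTregs lay nearest 99 different protein-coding genes, of which Satb1, Foxp1, Camk2a, Enc1 and Rere had 2 each, and 10 were nearest a gene of the central T cell list. Of the strongest members of that list, those of Bach2, Klf2, Satb1 and St8sia1 were among the 104. With only the eTreg groups fitted the calls of Bach2 and Satb1 were kept, that of St8sia1 was lost and Klf2 was not tested. The Bach2 region had 8.46, 14.2 and 9.37 CPM in control and 16.8, 10.9, 23.3 and 16.4 CPM in Atg14-deficient eTregs, which overlap (log2 fold change 0.68 ± 0.25 SE, adjusted p = 0.497 in edgeR). The Satb1 region had 1.30, 2.36 and 1.44 CPM in control and 5.39, 4.18, 3.18 and 2.83 CPM in Atg14-deficient eTregs, without overlap (log2 fold change 1.17 ± 0.44 SE, adjusted p = 0.517 in edgeR). The Klf2 and St8sia1 regions overlapped, with log2 fold changes of 1.40 ± 0.66 and 0.72 ± 0.32 (SE). Of the 5 members of highest level, the one in Rassf3 was among the 104, with 22.8, 15.7 and 29.6 CPM in control and 27.9, 47.7, 49.2 and 26.2 CPM in Atg14-deficient eTregs, which overlap.

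The smallest p-values in eTregs belonged to 3 members, none of which passed the adjusted threshold in edgeR. A region 52.3 kb upstream of Gm13070 at chr4:149850158-149850486, with Spsb1, a ubiquitin ligase adaptor gene, as nearest protein-coding gene, had 0 CPM in all 3 control and 1.20, 5.02, 0.529 and 1.03 CPM in the 4 Atg14-deficient eTreg libraries. These are 0 counts in each control library and 4, 12, 2 and 4 counts in the Atg14-deficient ones (adjusted p = 0.138 in edgeR), with a single library, replicate 2, well above the rest. It was not tested with only the eTreg groups fitted. In cTregs it had 7.33, 10.5 and 6.24 CPM in control and 10.9, 8.56, 9.99 and 8.03 CPM in Atg14-deficient libraries, which overlap, and this region also had the smallest interaction p. A region in introns of Arhgef3 and Gm34702 at chr14:27391978-27392285 had 0, 1.57 and 1.08 CPM in control and 4.79, 3.35, 4.76 and 4.11 CPM in Atg14-deficient eTregs, without overlap (log2 fold change 2.14 ± 0.54 SE, adjusted p = 0.271 in edgeR). A region in an intron of 8430430B14Rik at chr17:84006808-84007131 had 3.25, 2.1 and 2.16 CPM against 7.79, 5.02, 6.88 and 7.19 CPM, also without overlap (log2 fold change 1.45 ± 0.38 SE, adjusted p = 0.298 in edgeR).

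In cTregs the smallest p belonged to a region with lower values after loss of Atg14, 64.2 kb downstream of Gm34035 at chr17:3209478-3210121, with 20.04, 25.8 and 25.0 CPM in control and 15.1, 11.3, 9.73 and 16.1 CPM in Atg14-deficient cTregs. The groups did not overlap there, with a log2 fold change of -0.86 ± 0.26 (SE), which passed the unadjusted rule and not the adjusted one. A region in a noncoding exon of Paqr3, a Golgi membrane protein gene, had 6.60, 6.22 and 5.35 CPM against 10.1, 15.6, 10.8 and 11.2 CPM, without overlap (log2 fold change 0.96 ± 0.36 SE). A region 335.4 kb upstream of Satb1 and nearest to Gm19585, at chr17:52168333-52169058, had 5.87, 6.22 and 10.7 CPM against 11.8, 22.6, 14.7 and 8.67 CPM in cTregs, with overlap (log2 fold change 0.96 ± 0.36 SE), a call lost when Atg14-deficient cTreg replicate 2 (0.66) or control cTreg replicate 1 (0.80) or 2 (0.83) was left out. It was also among the 104 in eTregs, at 1.95, 2.1 and 1.80 CPM against 4.49, 4.18, 3.18 and 4.37 CPM, without overlap, a call lost with only the eTreg groups fitted.

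Of the interactions, the region nearest Gm41767 at chr18:68830626-68830972 went the other way from most. It had 11.7, 11.5 and 11.9 CPM in control and 4.79, 6.69, 7.41 and 5.65 CPM in Atg14-deficient eTregs, without overlap, while in cTregs the 24.4, 19.1 and 20.5 CPM of control overlapped the 26.9, 21.02, 27.3 and 19.9 CPM of Atg14-deficient libraries (interaction -1.09 ± 0.35 SE on the log2 scale). The region in an intron of Hephl1 nearest Panx1, a membrane channel gene, at chr9:15064071-15064649 had 5.86, 6.56 and 3.6 CPM in control and 6.89, 12.1, 12.2 and 13.1 CPM in Atg14-deficient eTregs, without overlap, against 22.2, 24.7 and 25.9 CPM and 22.7, 14.8, 25.2 and 26.3 CPM in cTregs (interaction 1.19 ± 0.40 SE). Neither passed the adjusted threshold.

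By gene list, the members called higher in Atg14-deficient eTregs were 10 of 58 for central T cells, 7 of 43 for resting T cell transcription factors, 2 of 9 for homing and egress, 2 of 9 for cytokine receptors, 2 of 11 for T cell receptor signalling, 1 of 7 for the AP-1 family, 0 of 7 for effector Treg genes, 0 of 5 for the BCL2 family and 0 of 4 for Treg identity, beside 10.2% of all members and 4.59% of all tested regions. With only the eTreg groups fitted they were 5 of 43 for central T cells and 4 of 32 for the transcription factors, and at most 1 for any other list, beside 6.20% of all members and 5.02% of all regions tested in that fit. No member of any of the 10 lists was called lower in either state, where few members were called lower at all. The lower calls were 0.879% of all members and 1.77% of all tested regions in eTregs, and 0.195% and 1.35% in cTregs. In cTregs 2 were called higher, both at Satb1, a gene on the central and the transcription factor list. This stands beside 1.95% of all members and 1.99% of all tested regions. The median log2 fold change in eTregs was 0.41 for homing and egress, 0.39 for Treg identity, 0.34 for the central list, the transcription factors and the BCL2 family, 0.32 for T cell receptor signalling and the AP-1 family, 0.12 for the effector list and 0.01 for the cytokine receptors, against 0.20 for all members.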

How the data were processed

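Splenic cTregs and eTregs were profiled by ATAC-seq in 14 libraries. The authors aligned the reads, kept short (nucleosome-free) fragments, called and merged peaks with MACS2 and deposited 1 table of raw read counts for 67254 regions. The submitters' processing notes name cutadapt 1.9, Picard 1.65, SAMtools, MACS2 2.1.0.20150603, bedtools and the build mm10 (GRCm38), which the coordinates were checked against, whereas the methods name an older build. Between 74.7% and 87.0% of regions had an even count per library, so that both ends of a fragment may have been counted and counting errors are not independent. Starts are printed 1-based.

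The count of each region was divided by the library total to give CPM, and the members were found by the stated rule with RefSeq starts. The members, gene lists and tests were chosen with earlier results of these data known. Genotypes were compared with edgeR 4.0.16 (quasi-likelihood test, total-count scaling, its default filter on low counts, 61366 regions tested, 1 fit of the 4 groups, Benjamini-Hochberg adjustment over all tested regions) in R 4.3.3, with DESeq2 1.42.0 as an alternative, and the scripts were tested on simulated data. A region was called at an unadjusted p under 0.05, or an adjusted p under 0.05, with a log2 fold change beyond 0.5. The labels number the libraries without saying which mice they came from, and the methods count the chimeras as the replicates, 3 control and 4 Atg14-deficient for each state. With 3 against 4 libraries an exact permutation test of a single value could not go below 0.0571. Alternatives were other scalings, filters, member rules, tools and leaving out each library. GENCODE starts and a block on same-numbered libraries of a genotype were added after the data were seen. Members were named by a fixed rule: the strongest member of each central T cell gene, the 5 of highest level and of highest ratio, the strongest at the 8 genes with most members, the 3 of smallest p in each contrast, and those at the edges. A few marker genes and 1 sequence are not reported here.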

Additional observations from a re-analysis of the deposited data

Results flagged for a closer look

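Among 86 groups of 4 libraries looked at, 5 had a library far from the other 3 by Dixon's criterion, where chance gives about 1 in 20 groups, or 4.3. The eTreg-open distal regions took 0.954% of the counts of Atg14-deficient eTreg replicate 1 and 0.790% to 0.801% of the other 3. The member near Ssbp2 had 4.18 CPM in Atg14-deficient eTreg replicate 2 against 2.1 to 2.31 CPM. The member in Cd200r3 had 0.257 CPM in Atg14-deficient eTreg replicate 4, which is 1 count, and 0 in the others. The member near Gm13070 had 5.02 CPM in Atg14-deficient eTreg replicate 2 against 0.529 to 1.20 CPM. The member near Panx1 had 6.89 CPM in Atg14-deficient eTreg replicate 1 against 12.1 to 13.1 CPM.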

How the results depend on the processing

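The median log2 fold change of the members stayed above 0 under all 29 alternatives, with a range of 0.14 to 0.28 for eTregs and 0.11 to 0.24 for cTregs, and no result was reversed. The counts of calls were less stable, partly because some settings test or keep fewer members. Members more accessible in Atg14-deficient eTregs (104 of 1024) became 40 of 377 with at least 10 counts in every library. That is 10.6%, against 4.96% of all tested regions. With only the 2 groups fitted they became 47 of 758 (6.20%, against 5.02%). They became 54 of 486 with a member ratio of at least 3, and 67 of 605 with a level of at least 10 CPM. A log2 fold change beyond 1 left 57, and leaving out a library gave 73 to 118. Those less accessible (9) became 4 with the limit of 10 counts (1.06%, against 2.16% of all tested regions). They became 4 with a ratio of 3 and 3 with a fold beyond 1 (8 to 32 with a library left out). In cTregs, the 20 more accessible became 8 with GC correction (0.781%, against 1.71% of all tested regions). They became 6 of 377 with 10 counts (1.59%, against 1.58%) and 32 with only 2 groups (3.13%, against 2.05%). DESeq2 gave 13 and a fold beyond 1 gave 1 (6 to 30 with a library left out). The 2 less accessible became 0 with a fold beyond 1 or a ratio of 3 (1 to 4 with a library left out). The 31 differences between states became 11 with 10 counts. Of these, 7 were more positive in eTregs (1.86%, against 2.08% of all tested regions) and 4 in cTregs (1.06%, against 1.33%). A ratio of 3 left 16 of 486 and a level of 10 CPM left 19 of 605. A block on same-numbered cTreg and eTreg libraries of a genotype, an alternative added after seeing the data, gave 48. Leaving out a library gave 22 to 57. The adjusted threshold was passed by 0 members, by 1 in DESeq2 and by 0 to 1 with a library left out. The 1024 members became 486 with a ratio of 3 and 605 with a level of 10 CPM, and 1008 to 1306 with a library left out of the rule. The replicate block, on same-numbered libraries across all 4 groups, gave 125 more and 11 less accessible members in eTregs and 31 and 2 in cTregs. It gave 32 differences between states and 0 past the adjusted threshold. Its shares over all tested regions are not given, so these counts cannot be set against background. Across genotypes, same-numbered libraries correlated in their deviations at -0.217 to 0.0914, so the numbers were not taken as pairs there. Within a genotype, every cTreg library correlated best with the eTreg library of its own number, at 0.119 to 0.243 in the Atg14-deficient and at 0.0543, 0.209 and 0.190 in the control group. The figure legend counts 3 control and 4 Atg14-deficient chimeras for cTregs and eTregs together, which would draw both states from the same mice. No label ties a number to a mouse, however, and 1 pair is under 0.1, so which libraries share a mouse is a hint from the data only. The block that gave 48 takes these pairs, and the main fit does not. Where fewer regions were tested or fewer libraries fitted, that bears on the counts, and otherwise the cause was not tested. Low counts in eTregs, with a median of 10 to 20 per member, limit all eTreg values.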
